A study of Mus musculus with 2 samples.

Results

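The proteasome is the protease that breaks down proteins tagged with ubiquitin, and its subunits are encoded by the Psma, Psmb, Psmc, Psmd and Psme genes. All genes were taken whose symbol starts with one of these prefixes and which had 50 or more unique molecular identifier (UMI) counts in the kept cell barcodes. This gave 43 of the 31053 genes listed. The other 2 of 45 genes with such a symbol, Psma8 and Psmb11, had 0 UMIs, with an upper Poisson bound of 0.00113 UMIs per 10000 UMIs. The 43 genes made up 0.718% of all UMIs. They comprised 7 alpha ring genes, 7 constitutive beta ring genes, 5 immunoproteasome genes, 6 base ATPases, 14 non-ATPase genes of the regulatory particle, 3 other activator genes, and Psmc3ip. Psmc3ip carries the prefix but encodes a recombination factor and no subunit, so it is left out where 37 genes outside the immunoproteasome are counted. The assembly chaperones Psmd5, Psmd9 and Psmd10 are counted with the regulatory particle.

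The cells were donor T cells from the colons of Balb/c recipients with graft-versus-host disease, taken 21 days after the recipients were lethally irradiated and given 5000000 bone marrow cells and spleen cells holding 800000 alpha beta T cells of C57BL/6 origin. Colon cells of 5 mice were pooled, cells positive for H2-Kb, the donor's class I molecule, and for the T cell receptor beta chain were sorted, and 1 droplet RNA library with 5' chemistry and 1 T cell receptor library were made from the same cDNA. The labels give no allele beyond the strains, and every group of cells described below shares donor, recipient and transplant, so there were no cells from a healthy colon or from another day. Host cells and donor cells that are not T cells were meant to be removed by the sort. Because 5 mice were pooled, the study is 1 sample and cells are not replicates. No test between groups was possible, and every interval given is a 95% interval that covers counting error only.

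The RNA library held 32772424 UMIs in 5348 barcodes, with 2549 to 39138 UMIs each, and 5333 barcodes were kept with a median of 4800 UMIs. The receptor library held contigs of 5990 barcodes, of which 5133 were among the kept ones. The titles name CD4 T cells, but by their UMIs 1861 cells fell into a CD4 class (Cd4 and no Cd8a or Cd8b1) and 2391 into a CD8 class (Cd8a or Cd8b1 and no Cd4). Cells with UMIs of both lineages (301) or without any of them (780) entered no comparison. A UMI of a T cell marker was found in 99.6% of kept cells. A list of 10 macrophage genes summed to 2.25 UMIs per 10000 for the CD4 class and 1.40 for the CD8 class, with none of the 10 at 0 in either. In 51 kept cells this list reached 20 or more UMIs, and the CD4 class held 10 of them and the CD8 class 12. No doublet caller was run. Productive TRB chains numbered 2 or more in 232 kept cells.

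As background, the proteasome core is a barrel of alpha rings, which gate the entry, around beta rings, which hold the protease sites. The regulatory particle caps the barrel: its non-ATPase subunits bind ubiquitin and remove it, and its base ATPases unfold the substrate. In lymphocytes and in cells exposed to interferon gamma, Psmb8, Psmb9 and Psmb10 take the places of the constitutive catalytic subunits Psmb5, Psmb6 and Psmb7, and Psme1 and Psme2 form an activator cap. This immunoproteasome is known for producing peptides that fit class I molecules, and activated T cells are known to depend on proteasome activity as they divide.

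Promoter elements known from textbooks for these genes were searched in RefSeq promoter windows (250 bases before to 50 after a start site, build GRCm38.p6), on both strands. A window was given for 37 of the 43 genes, and Psmb7, Psmc3, Psmb2, Psmd7, Psmd3 and Psmb1 had no entry. The interferon-stimulated response element, searched as GAAA, any 2 bases and GAAA, was in 3.99% of the windows of 27025 genes and in those of Psme1, Psmd4, Psmd9 and Psmb3. The gamma-activated site, searched as TTCNNNGAA, was in 9.55% of all and in those of Psmb8 and Psmd2. The antioxidant response element bound by Nfe2l1 and Nfe2l2, searched as TGACNNNGC or TGAGNNNGC, was in 30.8% of all, in 16 of the 32 other proteasome genes with a window and in 0 of the 5 immunoproteasome genes. A match is a match of letters and no measure of binding.

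Of the immunoproteasome genes, Psmb8 and Psme1 are shown around their matches, as 30 bases with the matching letters in capitals. The Psmb8 stretch is chr17:34198087-34198116 on the plus strand, with the match beginning 97 bases before the RefSeq start. The Psme1 stretch is chr14:55578493-55578522 on the plus strand, with the match beginning 9 bases after the start and reading as the element on the other strand. Both stretches lie inside the gene spans of the annotation used for positions (GENCODE M21). These spans begin upstream of the stretches, at 34197721 for Psmb8 and 55578123 for Psme1.
Psmb8: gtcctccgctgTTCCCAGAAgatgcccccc
Psme1: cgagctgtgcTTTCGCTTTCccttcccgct

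Psmb5 and Psmb6, the constitutive counterparts of Psmb8 and Psmb9, are shown over the bases before the start that lie outside annotated coding transcripts, with the antioxidant element in capitals. The Psmb5 stretch is chr14:54618023-54618245 on the minus strand, and its element begins 47 bases before the RefSeq start. The Psmb6 stretch is chr11:70525107-70525356 on the plus strand, and its element fills the last 9 bases before the start.
Psmb5: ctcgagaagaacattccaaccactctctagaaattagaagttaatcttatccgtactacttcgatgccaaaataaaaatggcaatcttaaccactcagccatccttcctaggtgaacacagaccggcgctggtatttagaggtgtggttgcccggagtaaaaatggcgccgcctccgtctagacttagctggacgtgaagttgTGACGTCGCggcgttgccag
Psmb6: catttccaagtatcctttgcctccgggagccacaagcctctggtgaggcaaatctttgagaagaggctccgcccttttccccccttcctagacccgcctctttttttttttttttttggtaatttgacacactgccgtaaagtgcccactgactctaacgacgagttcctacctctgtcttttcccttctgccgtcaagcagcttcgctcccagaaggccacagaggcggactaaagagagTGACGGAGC

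Psmd1, the subunit gene with the highest ratio between cycling and non-cycling cells in both classes below, and Psma4, which is among the highest in both, are shown as 30 bases around the same element. Psmc1, whose ratio in the CD8 class was above that of Psma4, had a window without this element. A link between the element and these ratios was not tested. The Psmd1 stretch is chr1:86064384-86064413 on the plus strand, 224 bases before the RefSeq start at the first letter of the element, and the Psma4 stretch is chr9:54950721-54950750 on the plus strand, 127 bases before it. The annotated span of Psmd1 begins at 86064387, so its element lies inside the annotated gene. That of Psma4 begins at 54950790, after its stretch.
Psmd1: atggcgggtgaTGAGTGGGCctctctttgc
Psma4: cgtgggcagacTGAGCCCGCcccagcactg

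The 3 most abundant proteasome genes in these T cells were the immunoproteasome genes Psmb8, Psme1 and Psme2, and Psme2 was not told apart from Psmb1 by its interval. Levels are UMIs per 10000 UMIs. The 5' chemistry counts 1 end of each molecule, so they were not divided by gene length, and capture may still differ between genes. Over all kept cells, Psmb8 (chr17:34197721-34201454) stood at 8.59 (interval 8.49 to 8.69) and had a UMI in 94.6% of cells. Psme1 (chr14:55578123-55581529) followed at 4.84 (4.77 to 4.92). Psme2 (chr14:55587441-55591113) at 4.26 and Psmb1, a structural beta ring subunit, at 4.16 had overlapping intervals (4.19 to 4.33 and 4.09 to 4.23). Psmb9 (chr17:34181987-34187764) stood below Psmb1, at 3.14, and Psmb10 (chr8:105935735-105938444) at 1.93.

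Each inducible catalytic gene exceeded the constitutive gene whose place its product takes. Psmb5 stood at 1.69, Psmb6 at 1.86 and Psmb7 at 0.867, so that Psmb8 made up 83.5% of the UMIs of Psmb8 and Psmb5 together (Clopper-Pearson interval 83.1 to 83.9). Psmb9 made up 62.8% of its pair with Psmb6 (62.0 to 63.5), and Psmb10 made up 68.9% of its pair with Psmb7 (68.0 to 69.9). The pair of Psmb8 and Psmb5 was thus the most one-sided of the 3. All 5 immunoproteasome genes summed to 22.8 UMIs per 10000 (22.6 to 22.9) and the 38 others, Psmc3ip included, to 49.0 (48.8 to 49.2), which gives the immunoproteasome genes 31.7% of all proteasome UMIs.

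Among the remaining genes, core particle genes were the more abundant. Psmb3, a structural beta subunit, stood at 3.78, and the alpha ring genes ranged from 1.35 (Psma6) to 2.79 (Psma2). Base ATPases ranged from 0.573 (Psmc1) to 1.47 (Psmc3). In the non-ATPase group, Psmd8 at 1.99 and Psmd4, a ubiquitin receptor, at 1.87 were highest. Its lowest members were the base assembly chaperones Psmd10 at 0.271 and Psmd5 at 0.201. Psme3, a nuclear activator, stood at 0.686 and Psme4, which caps the core in the nucleus, at 0.183. Psme2b, a near copy of Psme2, was counted at 0.507, and how reads were divided between the copies was not stated. No single cell held more than 1.12% of a gene's UMIs, the value of Psmc3ip.

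**Figure D1:**
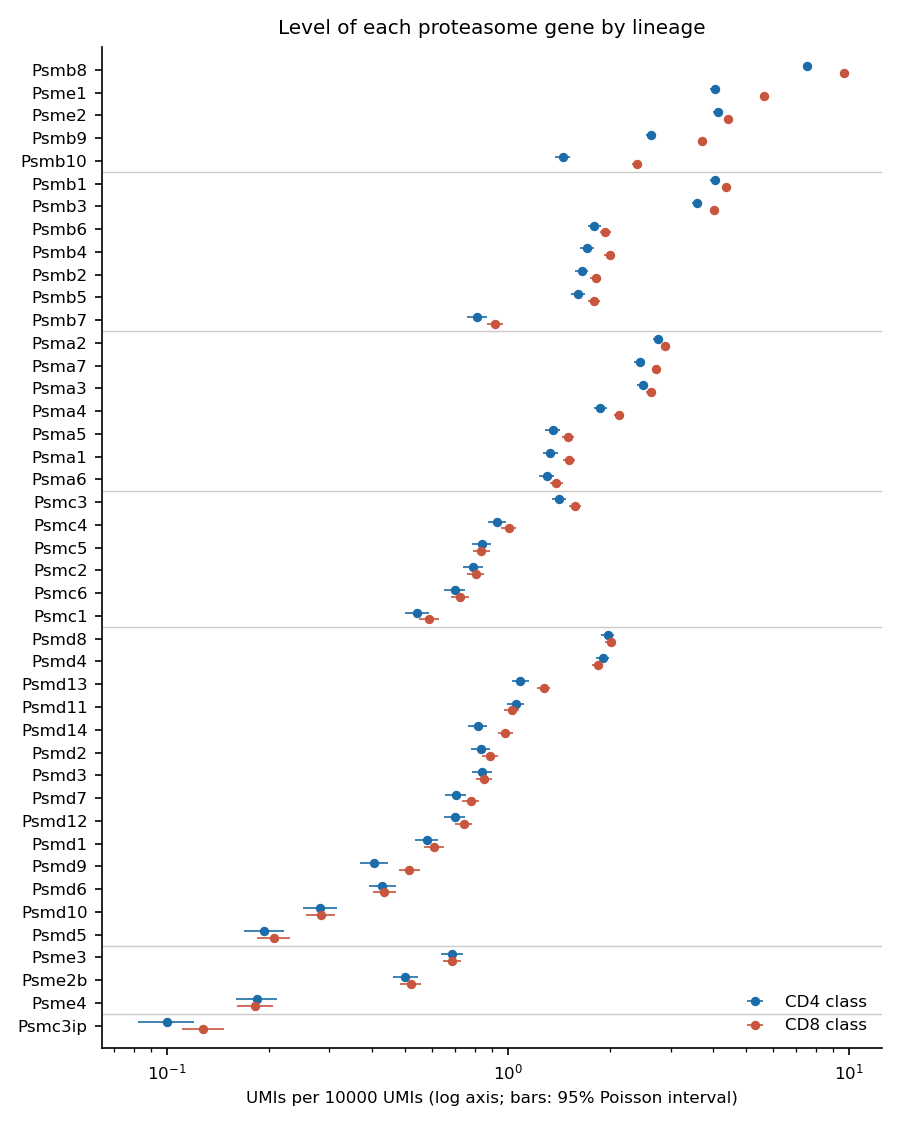
Level of each of the 43 proteasome genes in the CD4 class (blue) and the CD8 class (red), in UMIs per 10000 UMIs on a log axis, grouped by role, with 95% Poisson intervals for counting error. Psmb8, at 7.52 and 9.69, lies above every other gene in both classes, and the points of the immunoproteasome genes other than Psme2 stand furthest apart between the classes.

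Immunoproteasome genes were lower in the CD4 class than in the CD8 class, and the other proteasome genes differed little. The 5 immunoproteasome genes summed to 19.8 UMIs per 10000 in the CD4 class (19.51 to 20.04) and to 25.9 in the CD8 class (25.6 to 26.1), a ratio of 0.765 (0.752 to 0.777). The 38 others summed to 47.2 and 51.1, a ratio of 0.924 (0.914 to 0.934). The immunoproteasome share of proteasome UMIs was 29.5% in the CD4 class (29.2 to 29.9) and 33.6% in the CD8 class (33.3 to 33.9). On the log2 scale, the odds of an immunoproteasome UMI against another proteasome UMI differed by -0.27 (-0.30 to -0.24). Median depth was alike, at 4768 and 4910 UMIs per cell. Per cell, the level of all 43 genes had a median of 61.4 in the CD4 class, with the middle 50% of cells from 49.3 to 74.7, and of 71.6 in the CD8 class, from 58.3 to 85.1, so single cells of the classes overlapped widely.

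Psmb10 showed the widest gap, at 1.45 UMIs per 10000 in the CD4 and 2.39 in the CD8 class, a ratio of 0.605 (0.570 to 0.642). Psmb9 stood at 2.63 and 3.71, a ratio of 0.709 (0.677 to 0.741). Psme1 stood at 4.04 and 5.64, a ratio of 0.716 (0.691 to 0.743). Psmb8 stood at 7.52 and 9.69, a ratio of 0.777 (0.756 to 0.798). Psme2, whose product pairs with that of Psme1, did not share the gap: its levels were 4.13 and 4.43, a ratio of 0.933 (0.898 to 0.969). The constitutive counterparts lay close to the other members, with ratios of 0.898 for Psmb5, 0.928 for Psmb6 and 0.883 for Psmb7. Psmb10 accordingly made up 64.1% of its pair with Psmb7 in the CD4 and 72.2% in the CD8 class, Psmb9 59.5% and 65.8% of its pair, and Psmb8 82.4% and 84.4%.

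A gene was counted as past the fold when its higher level was at least 25% above its lower one. In this comparison 6 of 43 members were lower in the CD4 class past the fold and 0 were higher, where 17% of 10494 genes measured with 50 or more UMIs were lower and 15.4% higher. The 6 also had intervals wholly below 1, and 13% of all genes were lower past the fold with such an interval. They were Psmb8, Psmb9, Psmb10, Psme1, the assembly chaperone Psmd9 (ratio 0.787) and Psmc3ip (0.780). With 50% in place of 25%, 1 was lower, Psmb10, where 7.32% of all genes were. Members of the other roles lay in a narrow band. Ratios ran from 0.882 (Psma4) to 0.952 (Psma2) in the alpha ring, from 0.857 (Psmb4) to 0.928 (Psmb6) in the constitutive beta ring, and from 0.900 (Psmc3) to 1.0 (Psmc5) among base ATPases. Psmd14, the deubiquitinase of the regulatory particle, stood at 0.831 and Psmd13 at 0.856, while Psmd4 at 1.03 and Psmd11 at 1.03 were the highest. The median ratio was 0.927 over the 43 members and 0.976 over all genes measured.

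The gap between the classes was present in each of the 4 combinations of cycling state and Ifng detection (defined below). Immunoproteasome ratios were 0.716 and 0.751 in non-cycling cells without and with Ifng, and 0.804 and 0.774 in cycling cells without and with it. The ratios of the others in the same order were 0.941, 1.05, 0.960 and 0.923. Psmb10 had the lowest ratio of the 5 genes in all 4 combinations, from 0.464 to 0.655. In non-cycling cells alone, the log2 odds difference was -0.41. With 1 cell taken per clonotype (298 and 344 cells, those with a clonotype only), it was -0.13. Macrophage-list UMIs were higher in the CD4 class, as given above, and without the cells with 3 or more such UMIs or with 2 TRB chains the log2 odds difference was -0.29.

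Of the genes that act with the proteasome, few were past the fold, and the interferon-linked regulators were the exception. Of all genes measured, 17% were lower and 15.4% higher past the fold. Of 6 assembly factors and inhibitors measured, 1 was past the fold (Psmg4, a core assembly chaperone, lower at 0.786), and Pomp, which matures the beta rings, stood at 0.919. Of 8 associated receptors and deubiquitinases, 0 were past the fold. Of 8 regulators of proteasome genes, 3 were lower: Irf8 at 0.280 (0.242 to 0.322), Irf1 at 0.664 (0.632 to 0.699) and Nlrc5, the activator of class I genes, at 0.667 (0.596 to 0.745). Of 10 genes for loading peptides onto class I, 0 were past the fold, with Tap1, a peptide transporter subunit, at 0.840 and B2m, the class I light chain, at 0.896. In a list of 20 interferon gamma response genes, which shares Irf1 and Nlrc5 with the regulators, 13 were lower in the CD4 class and 2 higher, with a median ratio of 0.716. In a list of 16 type I interferon response genes, 8 were lower and 3 higher, with a median ratio of 0.793. The summed ratio of that list was 1.30, the opposite direction, with Ifi27l2a at 5.56 and 2.42 UMIs per 10000.

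**Figure D2:**
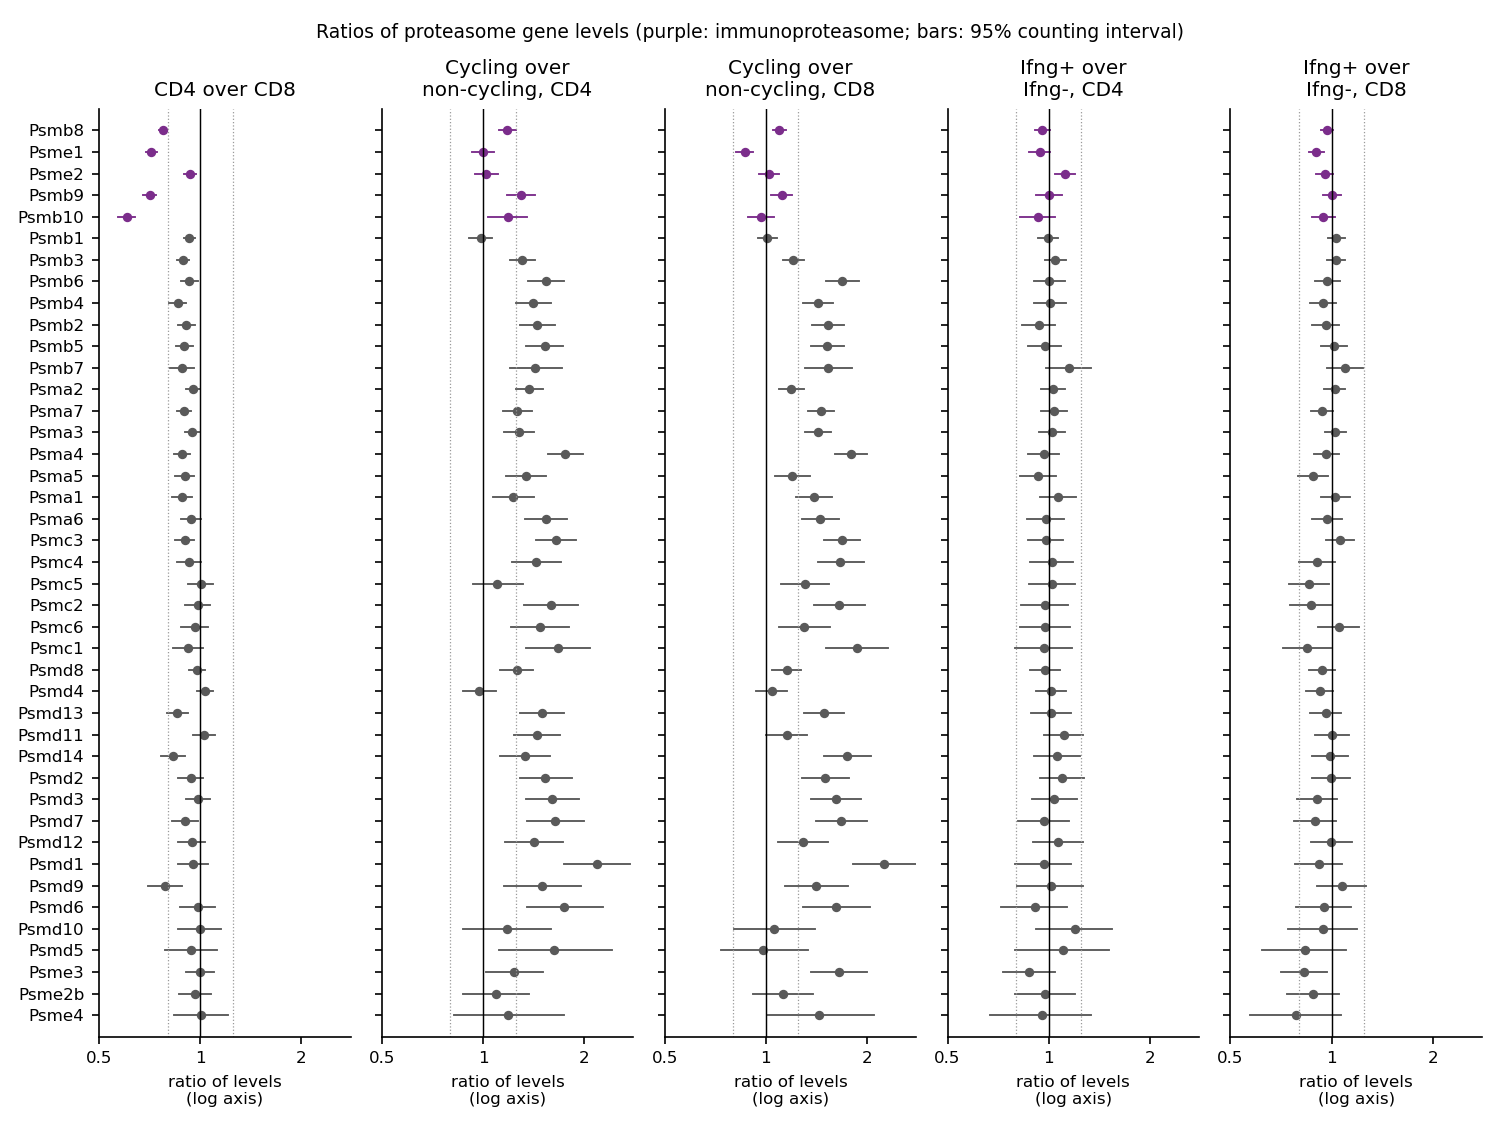
Ratio of levels in 5 comparisons for the 42 proteasome genes other than Psmc3ip, on a log axis, with 95% counting intervals; purple points are immunoproteasome genes and dotted lines mark a level 25% above in either direction. In the first panel 4 of the 5 purple points lie below 0.8, in the cycling panels most grey points lie right of the upper line while the purple ones stay nearer 1, and in the Ifng panels all points but Psme4 in the CD8 class, at 0.785, lie within the dotted lines.

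In cycling cells, most constitutive proteasome genes took a higher share of the RNA, and immunoproteasome genes differed less. Cells were called cycling with 3 or more UMIs of 20 replication and 25 mitosis genes after each cell was thinned to 2000 UMIs, and non-cycling with 0. Cells with 1 or 2 such UMIs, 828 in the CD4 and 942 in the CD8 class, were left out, and 111 and 167 of the cycling cells had exactly 3. In the CD4 class, 495 cycling cells had 55.0 UMIs per 10000 of the 38 others and 538 non-cycling cells had 40.5, a ratio of 1.36 (1.33 to 1.39). In the CD8 class, 866 cycling cells had 57.8 and 583 non-cycling cells 42.1, a ratio of 1.37 (1.35 to 1.40). Immunoproteasome genes stood at 20.9 and 18.7 in the CD4 class, a ratio of 1.12 (1.08 to 1.16), and at 26.3 and 25.8 in the CD8 class, a ratio of 1.02 (0.991 to 1.05). The immunoproteasome share was thus 27.6% in cycling and 31.5% in non-cycling CD4 class cells, and 31.3% and 38% in the CD8 class.

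Cycling cells were deeper, with a median of 8105 against 4411.5 UMIs in the CD4 class and 7839 against 4265 in the CD8 class, and the size of the gap depended on depth. Among cells of 3500 to 7000 UMIs, the ratio of the others was 1.14 in the CD4 class (1.10 to 1.19) and 1.18 in the CD8 class (1.14 to 1.22), and that of the immunoproteasome genes was 1.14 (1.08 to 1.21) and 1.0 (0.960 to 1.05). In this depth range the log2 odds difference of cycling over non-cycling cells was therefore 0.00079 in the CD4 class, against -0.27 over all depths, and -0.24 in the CD8 class, against -0.43. The others were also higher in deeper non-cycling cells. With each class cut into 4 depth bins of nearly equal cell number, non-cycling CD4 class cells went, from the shallowest to the deepest bin, from 37.4 to 46.0 UMIs per 10000 of the others and CD8 class cells from 38.2 to 46.4, while the immunoproteasome genes stood at 18.4 and 19.5, and at 24.2 and 26.1. Counted per cell and not per UMI, proteasome UMIs were higher in cycling cells by 1.30 and 1.24 on the log2 scale.

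By gene, 31 of 43 members were higher past the fold in cycling CD4 class cells and 0 lower, where 30.6% of all genes measured were higher. Lower genes made up 26.7% of all. For the CD8 class 28 members were higher and 0 lower, where 30.4% of all genes were higher and 26.4% lower. All of these members had intervals wholly above 1, and 19.8% and 20.4% of all genes were higher past the fold with such an interval. With 50% in place of 25%, 14 and 17 members were higher, where 19.4% and 19.3% of all genes were. Among the 37 genes outside the immunoproteasome, without Psmc3ip, 29 and 27 were higher, and 23 of them in both lineages. The 37 include the assembly chaperones Psmd5, Psmd9 and Psmd10 and the near copy Psme2b. Among the 5 immunoproteasome genes, 1 was higher in the CD4 class (Psmb9, 1.30) and 0 in the CD8 class. Within 3500 to 7000 UMIs, 14 and 17 of the 37 were higher, where 30.6% and 28.2% of all genes were.

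Psmd1, a scaffold of the regulatory particle, had the highest subunit ratio in both lineages. Its level was 0.840 in cycling and 0.386 in non-cycling CD4 class cells, a ratio of 2.18 (1.74 to 2.74), and 0.795 and 0.354 in the CD8 class, a ratio of 2.25 (1.81 to 2.81). Psma4, of the alpha ring, stood at 2.47 and 1.40 (ratio 1.76, 1.56 to 1.98) and at 2.62 and 1.46 (1.79, 1.61 to 2.0). The ATPase gene Psmc1 had ratios of 1.67 and 1.86 and the ATPase gene Psmc3 of 1.64 and 1.68. The constitutive catalytic genes were alike, with Psmb6 at 1.53 and 1.69, Psmb5 at 1.52 and 1.52, and Psmb7 at 1.43 and 1.53. Every role thus held members past the fold in the CD8 class except the immunoproteasome.

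Some members stood near equality. Psmb1 had ratios of 0.983 (0.911 to 1.06) and 1.01 (0.945 to 1.08) and Psmd4 of 0.974 (0.871 to 1.09) and 1.04 (0.937 to 1.16). They were among the 4 of the 37 genes past the fold in neither lineage. The others were the assembly chaperone Psmd10 and Psme2b. Psmb1 is the most abundant of the 37. Among immunoproteasome genes, Psmb8 stood at 8.33 and 7.05 in the CD4 class (ratio 1.18, with an interval above 1) and at 10.1 and 9.24 in the CD8 class (1.09, 1.05 to 1.15). Psme1 stood at 4.02 and 4.02 in the CD4 class and at 5.27 and 6.10 in the CD8 class, a ratio of 0.865 (0.817 to 0.916), and was the only member whose interval lay below 1 in either lineage. Psme2 had ratios of 1.02 and 1.02, and Psmb10 of 1.18 (1.04 to 1.35) and 0.966 (0.885 to 1.06). Psmc3ip, the recombination factor, was apart from all subunits, with 97 UMIs in cycling and 4 in non-cycling CD4 class cells (ratio 13.8, 5.2 to 51.5) and 178 and 6 in the CD8 class (10.5, 4.72 to 29.0).

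Most deubiquitinases and receptors that dock on the proteasome were higher in cycling cells too. Of all genes measured, 30.6% were higher and 26.7% lower past the fold in the CD4 class, and 30.4% and 26.4% in the CD8 class. Of 8 such genes, 5 were past the fold in each lineage, among them Uchl5 at 2.18 and 2.04 and Usp14 at 1.80 and 1.61. Of 6 assembly factors and inhibitors, 4 were past the fold in the CD4 and 2 in the CD8 class, with Psmg1, a core assembly chaperone, at 1.64 and 2.49. Of 8 regulators of proteasome genes, 3 were lower and 0 higher in the CD4 class and 5 lower and 1 higher in the CD8 class, with Nlrc5 at 0.700 and 0.570. Of 10 class I genes, 2 were lower and 2 higher, and 4 lower and 3 higher, with the heavy chain H2-K1 at 0.705 and 0.678 and the chaperone Canx at 1.53 and 1.80. In the interferon gamma response list, 13 of 20 genes were lower and 1 higher in cycling CD4 class cells, and 17 lower and 0 higher in the CD8 class, with median ratios of 0.750 and 0.547. Of 16 type I genes, 5 were lower and 3 higher with a median ratio of 0.960, and 15 lower and 0 higher with a median of 0.574. Some of these counts lay near the shares of all genes, such as 2 of 6 assembly factors and inhibitors in the CD8 class. The 5 of 16 type I genes lower in the CD4 class also lay near them. These lists were not measured at matched depth.

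The macrophage list was lower in cycling cells, at 1.13 and 3.67 UMIs per 10000 in the CD4 class and 1.12 and 2.59 in the CD8 class. Without cells that had 3 or more such UMIs or 2 TRB chains, the ratio of the others was 1.36 and 1.39 and that of the immunoproteasome genes 1.14 and 1.03. The gap was also measured within the largest clone, of CD8 lineage, where 98 cycling and 67 non-cycling cells had an immunoproteasome share of 33.9% (32.8 to 34.9) and 38.8% (36.8 to 40.8). In the other 4 clones with at least 10 cells of each state, the ratio of the others ran from 1.06 to 1.41, and the intervals of the share in cycling and non-cycling cells overlapped in 3. These shares were 34.7% and 32.3% in clone 3, 28.1% and 31.6% in clone 4 and 31.1% and 31.7% in clone 9. They did not overlap in clone 7, at 25.5% (22.5 to 28.8) and 33.9% (28.9 to 39.1).

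The 8 groups formed by lineage, cycling state and Ifng detection show both gaps at once. Immunoproteasome genes stood at 18.4, 19.6, 21.3 and 19.5 UMIs per 10000 in CD4 class cells that were non-cycling without Ifng, non-cycling with Ifng, cycling without and cycling with. In the same order, they stood at 25.7, 26.1, 26.6 and 25.1 in the CD8 class, so that every CD8 group lay above every CD4 group. The others stood at 39.6, 44.2, 55.5 and 53.3 in the CD4 class and at 42.1, 41.9, 57.8 and 57.8 in the CD8 class, so that every cycling group lay above every non-cycling group. By the number of replication and mitosis UMIs, the immunoproteasome share in the CD4 class was 31.5% at 0, 30.9% at 1, 31.3% at 2 and 30.5% at 3 to 5 UMIs, then 27.6% at 6 to 15 and 26.3% at 16 or more. In the CD8 class it was 38%, 36.4%, 35.1%, 34.4%, 30.5% and 30.5% in the same order. The bins also differed in depth: the median cell had from 4254 to 4907.5 UMIs in the first 4 CD4 bins and 9737.5 and 10719 in the last pair, and from 4180 to 5020.5 and then 9408 and 10021.5 in the CD8 class. The part of depth in these steps was not tested beyond the values at 3500 to 7000 UMIs. Between the lowest and the highest bin, Psmb10 in its pair with Psmb7 stood at 65.8% and 57.8% in the CD4 class and at 78.1% and 68.0% in the CD8 class. Psmb9 in its pair with Psmb6 stood at 61.6% and 56.0%, with 66.5% at 3 to 5 UMIs, in the CD4 class and at 71.6% and 63.2% in the CD8 class.

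**Figure D3:**
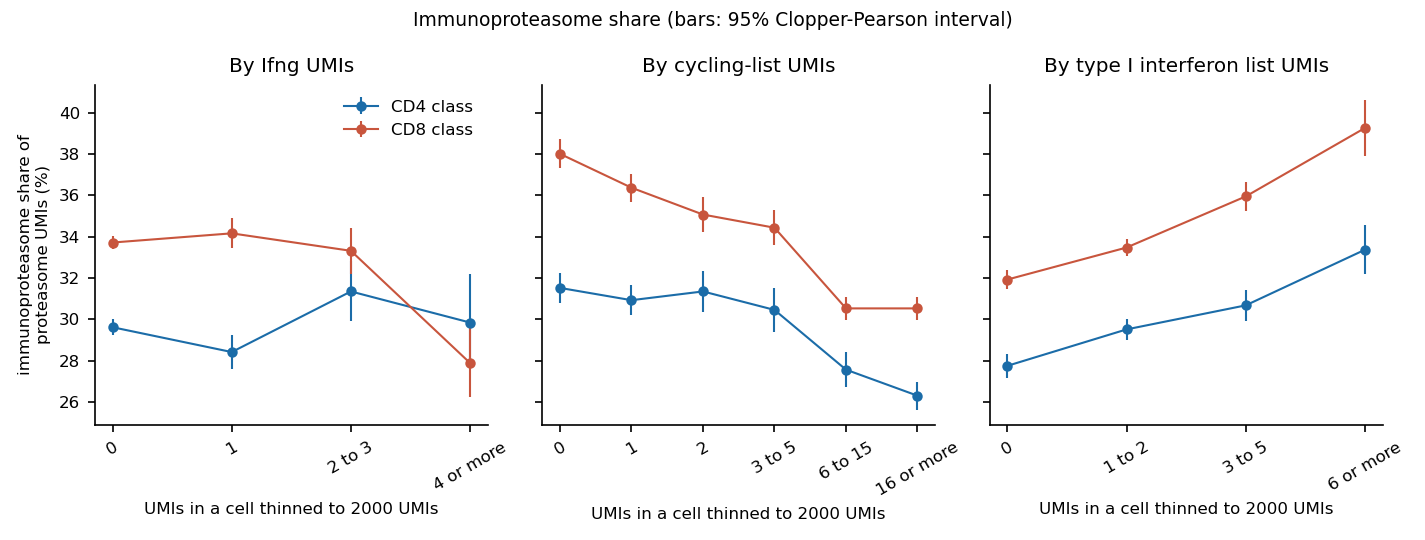
Immunoproteasome share of proteasome UMIs, in percent, by the number of Ifng, cycling-list and type I interferon list UMIs in a cell thinned to 2000 UMIs, for the CD4 class (blue) and the CD8 class (red), with 95% Clopper-Pearson intervals; the vertical axis does not start at 0. The share goes from 38% to 30.5% across the cycling list in the CD8 class and from 31.9% to 39.3% across the type I list, and shows no such course over the lower Ifng bins.

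Over all cycling states together, detection of Ifng did not go with a higher level of immunoproteasome genes in the same cell. Ifng encodes the cytokine known to induce the immunoproteasome. Cells were called Ifng-positive with 1 or more Ifng UMI after thinning to 2000 UMIs, which held for 22.4% of CD4 class and 23.9% of CD8 class cells, against 36.8% and 42.5% unthinned. Of the 51 cells with 20 or more macrophage-list UMIs, with a median of 8778 UMIs before thinning, 15.7% were Ifng-positive by the same measure. Ifng UMIs were thus also counted in cells with macrophage RNA, and the part of free RNA or doublets in the comparison was not tested. Immunoproteasome genes stood at 19.6 UMIs per 10000 in 417 Ifng-positive and 19.8 in 1444 Ifng-negative CD4 class cells, a ratio of 0.989 (0.958 to 1.02). Among CD8 class cells they stood at 24.9 in 571 and 26.1 in 1820, a ratio of 0.953 (0.931 to 0.976). The others had ratios of 1.01 (0.987 to 1.03) and 0.974 (0.957 to 0.990). In the groups by cycling state given above, immunoproteasome genes stood higher with Ifng than without it in non-cycling cells of both classes. In cycling cells of both classes immunoproteasome genes stood lower with Ifng.

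For the CD4 class, 0 of 43 members were higher past the fold and 1 lower, where 13.2% of all genes were higher and 15.3% lower. For the CD8 class 0 were higher and 2 lower, where 11.2% were higher and 13.4% lower. Members lower past the fold and with intervals wholly below 1 numbered 0 and 1, where 3.27% and 3.86% of all genes were. Without the fold, 0 and 7 of 43 members had intervals wholly below 1, and the like share of all genes was not taken. With 50% in place of 25%, members lower numbered 0 and 1, where 7.07% and 5.94% of all genes were lower. Psmc3ip was lower in both, at 0.741 with an interval that held 1 (0.433 to 1.21) and at 0.603 (0.394 to 0.895), and Psme4 in the CD8 class, at 0.785 with an interval that held 1 (0.570 to 1.06). Psme2 was the immunoproteasome gene with the highest ratio in the CD4 class, at 4.49 and 4.02 UMIs per 10000 (1.12, 1.04 to 1.19), and stood at 0.953 (0.899 to 1.01) in the CD8 class. Psme1 stood at 0.939 (0.874 to 1.01) and at 0.900 with an interval below 1 (0.855 to 0.948). Psmb8 stood at 0.956 and 0.969, Psmb9 at 1.0 in both, and Psmb10 at 0.927 and 0.945. Among the others, the highest ratios were those of Psmd10 in the CD4 class, at 1.20 (0.919 to 1.55), and of Psmb7 in the CD8 class, at 1.10 (0.967 to 1.24), both with intervals that held 1.

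Further lists were counted in the same comparisons. Of all genes measured, 13.2% were higher and 15.3% lower past the fold in the CD4 class, and 11.2% and 13.4% in the CD8 class. Of 20 genes known to respond to interferon gamma, 1 was higher and 3 lower in the CD4 class and 3 were higher and 2 lower in the CD8 class. These counts lay near or below the shares of all genes. Socs1, a feedback inhibitor of cytokine signalling, was higher in both, at 1.30 (1.17 to 1.45) and 1.51 (1.37 to 1.66). Gbp5 was lower in the CD4 class at 0.592 (0.348 to 0.957) and higher in the CD8 class at 1.59 (1.27 to 1.98). Of the regulators in the CD8 class, Irf8 was higher at 1.96 (1.74 to 2.21) while Irf1 stood at 1.22 (1.14 to 1.30). Replication genes were lower in Ifng-positive cells, 11 of 20 past the fold in the CD4 class and 14 of 20 in the CD8 class. Mitosis genes went another way in the CD4 class, where 9 of 25 were past the fold upward and 0 downward, with a ratio of their summed level of 1.13 (1.10 to 1.17). In the CD8 class 0 were higher and 2 lower, with a ratio of 0.911 (0.888 to 0.934). Cycling cells made up 27.8% of Ifng-positive and 26.2% of Ifng-negative CD4 class cells, and 32.0% and 37.5% in the CD8 class. In non-cycling cells alone, the summed proteasome level was higher in Ifng-positive CD4 class cells by 0.14 on the log2 scale, against 0.0032 in all cells. In the CD8 class the same difference was -0.049 in all cells, 0.0055 in non-cycling cells and 0.023 with Ifng called on unthinned UMIs, so its direction rested on these choices.

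By number of Ifng UMIs, the immunoproteasome share in the CD4 class was 29.6% at 0, 28.4% at 1, 31.3% at 2 to 3 and 29.8% at 4 or more. Over the same bins it was 33.7%, 34.2% and 33.3% in the CD8 class, and 27.9% (26.3 to 29.6) in the 51 cells with 4 or more. In those 51 cells Psmb10 made up 56.3% of its pair with Psmb7, against 72.9% at 0 Ifng UMIs, and the others stood at 56.4 UMIs per 10000, against 51.4. Cycling cells made up 41.2% of the 51 cells and 37.5% of those with 0. The share was 25.4% (23.5 to 27.5) in 21 cycling cells, against 31.5% at 0. It was 32.3% (28.6 to 36.2) in 21 cells with 1 or 2 list UMIs, against 36.1% (35.5 to 36.7) at 0. In 9 non-cycling cells it was 33.0% (28.3 to 37.9), against 37.9% (37.1 to 38.7) at 0. The intervals of the last pair of states overlapped those at 0. These groups are small, and a few cells can set them.

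Cells with more UMIs of type I interferon response genes had a higher immunoproteasome share in both classes. It was 27.7%, 29.5%, 30.7% and 33.4% (32.2 to 34.6) at 0, 1 to 2, 3 to 5 and 6 or more list UMIs in the CD4 class, and 31.9%, 33.5%, 35.9% and 39.3% (37.9 to 40.6) in the CD8 class. Immunoproteasome levels went from 18.4 to 24.1 and from 24.6 to 30.3 UMIs per 10000 between the lowest and the highest bin. The others stood at 47.8 and 48.1 in the CD4 class and at 52.5 and 46.9 in the CD8 class. Psmb10 went from 1.30 to 2.47 in the CD4 class and from 2.15 to 3.34 in the CD8 class. Median depth in the lowest and highest bins was 4661 and 4906 UMIs, and 5156 and 4416. In the CD4 class the gene Ifi27l2a alone held 5.56 of the list's 10.4 UMIs per 10000, and in the CD8 class 2.42 of 7.96. In cycling CD8 class cells 15 of the 16 list genes were lower, as given above. The bins were not split by cycling state, and the part of cycling or of this gene in these steps was not tested.

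**Figure D4:**
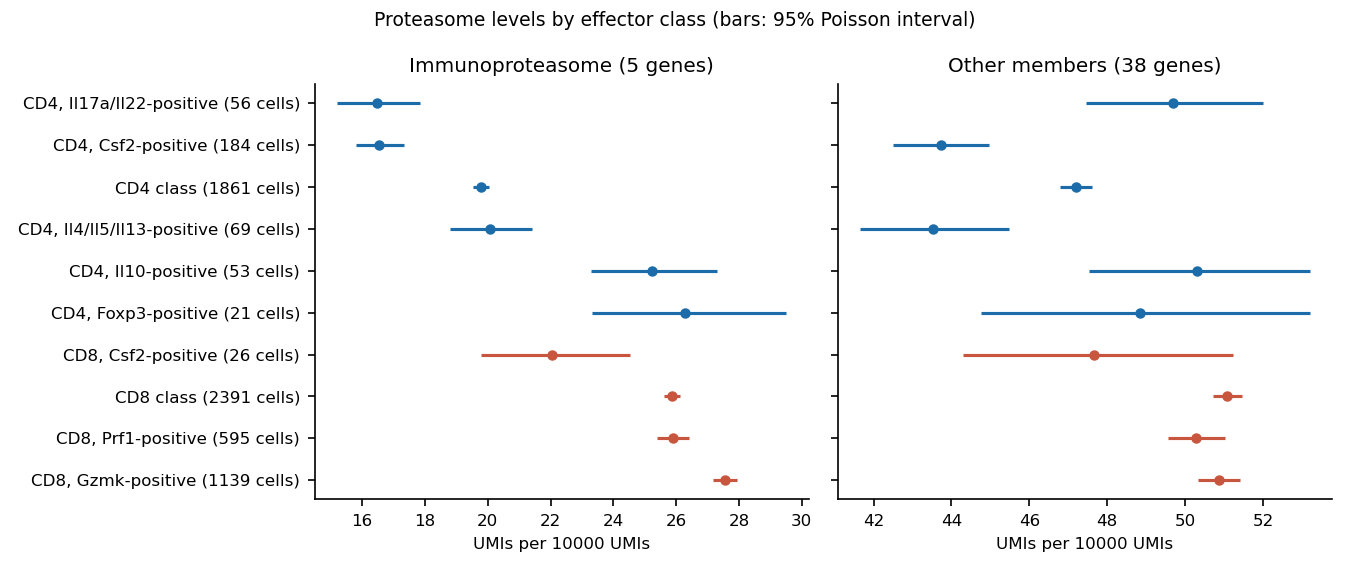
Summed levels of the 5 immunoproteasome genes (left) and the 38 others (right), in UMIs per 10000 UMIs, in cells with a UMI of the named effector genes after thinning to 2000 UMIs, with 95% Poisson intervals; axes do not start at 0. On the left, CD4 cells with Il17a or Il22 or with Csf2 lie lowest, at 16.5, and CD8 cells with Gzmk highest, at 27.6.

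CD4 class cells with a UMI of different effector genes differed in the summed level of immunoproteasome genes. The groups are small and rest on UMI detection, so the share of cells positive after thinning to 2000 UMIs was also taken in the CD8 class and in the 51 cells with 20 or more macrophage-list UMIs. The median cell of the 3 sets had 4768, 4910 and 8778 UMIs. The share for Il17a or Il22 was 3.01% in the CD4 class, 0.0418% in the CD8 class and 1.96% (0.0496 to 10.4) in the 51 cells. For Csf2 it was 9.89%, 1.09% and 5.88% (1.23 to 16.2), for Il4, Il5 or Il13 3.71%, 0.125% and 0, for Il10 2.85%, 1.46% and 0, and for Foxp3 1.13%, 0.167% and 0. A count of 0 in 51 cells allows a share of up to 6.98% (exact upper bound), and the part of free RNA in these groups was not tested. Cells with Il17a or Il22, cytokines of type 17 helper cells, had 16.5 UMIs per 10000 of these genes (15.2 to 17.8, 56 cells), and cells with Csf2, which encodes GM-CSF, had 16.5 (15.8 to 17.3, 184 cells). Cells with Il4, Il5 or Il13, cytokines of type 2 helper cells, had 20.1 (18.8 to 21.4, 69 cells), close to the class as a whole at 19.8. Cells with Il10 had 25.2 (23.3 to 27.3, 53 cells) and cells with Foxp3, which marks regulatory T cells, had 26.3 (23.3 to 29.5, 21 cells). The last pair thus lay near the CD8 class, at 25.9, and 1 cell can belong to several classes. As shares of proteasome UMIs these values were 24.9%, 27.5%, 31.6%, 33.4% and 35%. Psmb9 stood at 1.59 in the Il17a or Il22 class and 4.16 in the Foxp3 class, and Psmb8 at 6.62 and 10.3.

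In non-cycling cells alone the order was in part the same. The share was 22.9% in 18 cells with Il17a or Il22 (19.6 to 26.5) and 26.8% in 21 cells with Il4, Il5 or Il13 (23.5 to 30.3), below 31.0% in 49 cells with Csf2 (28.5 to 33.5). It was 39.4% in 13 cells with Il10 and 36.5% in 5 cells with Foxp3. Among CD8 class cells, 1139 with Gzmk, a granzyme of effector memory cells, had 27.6 UMIs per 10000 of immunoproteasome genes (27.2 to 27.9) and a share of 35.1%. The 595 cells with Prf1, which encodes perforin, had 25.9 (25.4 to 26.4) and 34.0%. In the 51 macrophage-list cells, Gzmk was found in 11.8% and Prf1 in 5.88%, against 47.6% and 24.9% of the CD8 class. The 26 CD8 cells with Csf2 had 22.1 (19.8 to 24.5) and 31.6%, below the class in level. Their share of the class, 1.09%, lies below that in the macrophage-list cells, 5.88% (1.23 to 16.2). The part of free RNA in these CD8 cells was not tested.

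Clones of 20 or more cells were described apart, since cells of a clone share an ancestor. There were 19, of which 7 were of CD8 and 12 of CD4 lineage by the class of most of their cells with lineage UMIs. The immunoproteasome level ran from 21.7 to 30.6 UMIs per 10000 over the CD8 clones, with a median of 25.8, and from 16.1 to 24.3 over the CD4 clones, with a median of 21.3. The immunoproteasome share ran from 30.1% to 36.1% and from 26.1% to 34.3%, so the lineages overlapped clone by clone. The others ran from 46.2 to 64.7 and from 40.9 to 58.4. Clone 1, with 263 cells the largest, had 30.05 UMIs per 10000 of immunoproteasome genes (29.2 to 30.9) and the highest share, 36.1%. Clone 11, a CD4 clone of 39 cells, had the lowest level, 16.1 (14.4 to 18.0). Clone 6, a CD4 clone of 55 cells, had the highest CD4 share, 34.3%, and the lowest fraction of cycling cells of all, 7.27%.

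**Figure D5:**
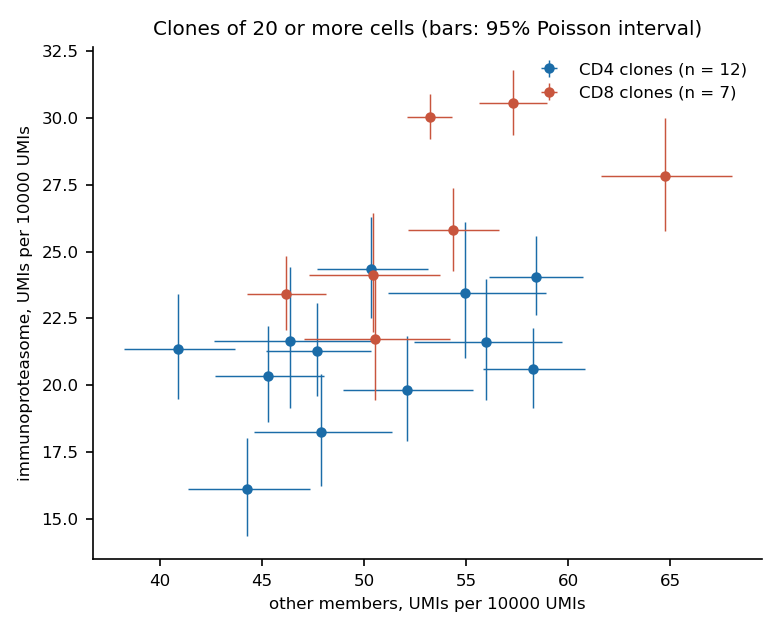
Summed level of the 5 immunoproteasome genes against that of the 38 others, both in UMIs per 10000 UMIs, for each of the 19 clones of 20 or more cells, with 95% Poisson intervals; axes do not start at 0. The 7 CD8 clones (red) run from 21.7 to 30.6 on the vertical axis and the 12 CD4 clones (blue) from 16.1 to 24.3, with overlap.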

How the data were processed

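The deposited RNA values are UMI counts per gene and cell barcode, whole and without normalization. Cell Ranger and mm10 are named in the submitters' processing notes, while its version and the annotation are not given in the sources used here. As to receptors, the deposited contig table gives read and UMI counts of each assembled receptor contig, of which only the chain, V and J gene, CDR3 and productive calls were used. A clonotype was the set of productive chains of a cell with 1 TRB and at least 1 TRA chain.

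Barcodes with at least 500 genes and at most 10% mitochondrial UMIs were kept. The first limit left out 1 barcode, and the second 15, which included it. UMIs were summed per class of cells and divided by the class total. Ratios carry exact conditional binomial intervals, levels Poisson intervals, shares Clopper-Pearson intervals and odds Woolf intervals. Cells were thinned without replacement at a fixed seed to set cycling, Ifng, interferon list and effector classes only, and levels use all UMIs. Ratios were computed for all 10494 genes with 50 or more UMIs. Simulated counts with known folds were used to test the ratios. The named genes are the 5 immunoproteasome genes, Psmb5, Psmb6 and Psmb7, in each comparison the other members with the 5 largest and 5 smallest ratios by the bound nearest 1, and up to 3 genes of each further list. Other genes named were chosen after their values were seen. The proteasome genes and all lists were chosen with earlier results of these data known. The splits by type I list and by cycling-list UMIs, within clones, and of Ifng bins by cycling state were added after results were seen. Gene positions are 1-based, from GENCODE M21 on mm10, where all 45 symbols matched. The tools were pandas 2.3.3, scipy 1.17.1, matplotlib 3.10.9 and numpy 2.4.6 under Python 3.11.15.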

Additional observations from a re-analysis of the deposited data

How the results depend on the processing

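Of 112 alternative values, 61 moved by less than the counting interval or, for counts, within 1.5 times. In all 11 changed sign, 10 of them in the Ifng comparisons: in 8 the main interval held 0, and the other 3, whose main interval did not, are given as reversed. The cause was not tested. Values of levels and odds are log2. The CD4 over CD8 level, -0.20, became -0.16 centred on the median gene, -0.27 as UMIs per cell and -0.23 with the lineages set on thinned cells; its odds, -0.27, became -0.13 with 1 cell per clonotype, -0.32 at 3500 to 7000 UMIs, -0.38 as a median of genes (added after seeing the data), -0.41 in non-cycling cells and -0.23 with thinned lineages. The cycling level in the CD4 class, 0.36, became 0.31 with cells weighted alike, 0.19 at 3500 to 7000 UMIs, 0.33 centred, 1.30 per cell, 0.40 with 5 or more list UMIs and 0.25 with 2 or more against fewer; its odds, -0.27, became -0.19 with cells weighted alike, reversed to 0.00079 at 3500 to 7000 UMIs, and became -0.20 with 2 or more list UMIs. The CD8 class level, 0.31, became 0.27, 0.15, 1.24, 0.34 and 0.24 under the same settings without centring. Its odds, -0.43, became -0.33 weighted alike, -0.58 with 1 cell per clonotype, -0.24 at 3500 to 7000 UMIs, -0.51 as a median of genes and -0.34 with 2 or more list UMIs.

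The Ifng level in the CD4 class, 0.0032, became -0.027 with 1 cell per clonotype, 0.041 per cell, 0.11 with unthinned Ifng, 0.063 with another thinning seed and 0.14 in non-cycling cells; its odds, -0.027, became 0.089 with 2 or more Ifng UMIs, -0.085 unthinned and -0.095 with the other seed. In the CD8 class the level, -0.049, became -0.024 at 3500 to 7000 UMIs, -0.081 per cell and -0.017 with 2 or more Ifng UMIs, and reversed to 0.023 unthinned and 0.0055 in non-cycling cells; its odds, -0.030, became 0.036 with 1 cell per clonotype, -0.13 with 2 or more Ifng UMIs, -0.13 unthinned and 0.031 in non-cycling cells. With 50% in place of 25%, members past the fold in the 5 comparisons in the order of the report numbered 1, 14, 17, 0 and 1 in place of 6, 31, 28, 1 and 2. With 25% and the interval wholly on that side of 1, the Ifng counts were 0 and 1. No replicate was left out: the pool is 1 sample. No paired analysis was possible because each library is a single sample with no test. Depth limits the smallest groups, of 5 to 26 cells. Ratios of single genes in them were not given.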

Other observations

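Cells outside the lineage classes had proteasome shares near that of the CD4 class. In the 301 cells with UMIs of both lineages, at a median of 7939 UMIs, immunoproteasome genes made up 30.6% of proteasome UMIs, and in the 780 cells with UMIs of neither, at a median of 3955, they made up 30.3% (29.7 to 30.9). The 51 cells with 20 or more macrophage-list UMIs had 35.2% (33.7 to 36.8), with Psmb10 at 2.52 UMIs per 10000, against 2.39 in the CD8 class.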
